A study of Mus musculus with 7 samples.

Results

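The genes described here are 50 genes of the cell cycle and mitosis, of the 43346 genes with counts in the data. They were chosen by symbol, as genes known to run the cell division cycle, although earlier results of these data were known. Summed over both alleles, each of the 50 reached 10 or more counts in each mouse, as did 15111 of all genes. RNA was sequenced from the proximal and distal tibial growth plates of 7 male F1 mice aged 21 d, from a cross of C57BL/6J (B6) and CAST/EiJ (CAST), a wild-derived inbred strain. The mice were untreated and form 1 group, and they carry the numbers 1, 2, 3, 4, 5, 7 and 8. Each read was assigned to the B6 or the CAST copy of its gene where it could be. The study thus compared the 2 alleles within the same tissue, to find genes whose expression depends on their own chromosome. Counts of X-linked Kif4 and Pola1, given below, were nearly all from B6, and the X chromosome of a male comes from the mother. The strain of an allele and the parent it came from therefore cannot be told apart in these mice.

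The growth plate is the cartilage at the end of a growing bone, in which columns of chondrocytes divide, enlarge and are replaced by bone. The labels call the tissue growth plate chondrocyte, but the RNA came from dissected and homogenized tissue. All 12 of 12 chondrocyte markers were above 0 in every mouse, with a summed level of 64881 to 118370 CPM, counts scaled to the total of the library with TMM factors. Markers of other cells were present as well. All 10 erythroid markers found had counts in every mouse, with a summed level of 8117 to 19693 CPM, and so did 11 of 11 neutrophil and 10 of 10 B lineage markers, 8 of 8 osteoblast, 6 of 6 osteoclast, 7 of 7 skeletal muscle and 5 of 5 endothelial markers. Depth was 14098019 counts in mouse 7 to 37849667 in mouse 5. In whole tissue, fewer dividing cells and less RNA per cell cannot be told apart.

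A cell that divides passes from G1, in which D cyclins with Cdk4 or Cdk6 inactivate the retinoblastoma proteins and free the E2F factors, into S phase, in which the MCM helicase opens the DNA for copying. Cyclin B with Cdk1 then drives entry into mitosis, spindle motors and checkpoint kinases separate the chromosomes, and the central spindle guides the cut between the daughter cells. Most genes of the later steps are silent in resting cells and are switched on together, through E2F sites for many S phase genes and through the CHR element, often with CCAAT boxes, for many G2 and mitosis genes.

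These elements could be looked for in the RefSeq promoter windows of GRCm38.p6, which run from 250 bases before to 50 bases after an annotated start. Windows were found for 40 of the 50 genes. The stretches printed here are 30 bases long and lie before the annotated start. They were chosen to show a CHR core in 5 mitosis genes and an E2F motif in 2 replication genes, and capitals mark the motifs found.
Cdk1: ctttaccgcggcgagTTTGAAactgctggc
Cdc20: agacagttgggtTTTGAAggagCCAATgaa
Top2a: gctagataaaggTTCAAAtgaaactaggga
Kif11: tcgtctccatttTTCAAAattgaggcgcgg
Mki67: ggTTTGAAtcgggcgggctgcggcgggcga
Rrm1: caggagaactcgTTCCCGCcaggtccgctt
Mcm6: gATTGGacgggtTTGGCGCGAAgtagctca

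All are written 5′ to 3′ on the strand of the gene. The Cdk1 stretch lies at chr10:69352913-69352942 on the minus strand, Cdc20 at chr4:118437344-118437373 on the minus strand, Top2a at chr11:99024195-99024224 on the minus strand and Mki67 at chr7:135716450-135716479 on the minus strand. Kif11 lies at chr19:37376351-37376380 on the plus strand, Rrm1 at chr7:102441616-102441645 on the plus strand and Mcm6 at chr1:128359734-128359763 on the minus strand. The CHR core of the Cdk1 stretch begins 15 bases before the annotated start, that of Cdc20 18 bases, that of Kif11 19 bases and that of Top2a 23 bases, whereas in Mki67 it begins 98 bases before it. The E2F motif began 67 bases before the start of Rrm1 and 46 bases before that of Mcm6, where an E2F motif on each strand overlapped the other.

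The CHR core was searched as TTTGAA or TTCGAA, the CCAAT box as CCAAT, and the E2F motif as TTGGCGC or as TTCCCGC or as TTGCCGC or as TTCGCGC, each on both strands of the whole window. A CHR core was present in 19 of the 40 genes (47.5%), against 21.66% of all 27025 genes with a window. A CCAAT box was present in 30 genes (75.0%), against 41.06%, and an E2F motif in 13 genes (32.5%), against 10.86%. The CHR core was found in 4 of 5 mitotic entry genes, 5 of 7 spindle genes, 4 of 4 cytokinesis genes and both proliferation marks, and in 0 of 4 G1 genes. It was also found in 3 of 10 replication genes and 1 of 3 transcription factors, and in 0 of 3 inhibitors and 0 of 2 G1/S genes. The E2F motif was found in 6 of 10 replication genes and in 0 of 7 spindle genes and 0 of 4 cytokinesis genes. It was also found in 2 of 5 mitotic entry genes, 1 of 2 proliferation marks and 1 of 4 G1 genes. The rest were 1 of 3 inhibitors, 1 of 3 transcription factors and 1 of 2 G1/S genes. A match describes these letters and does not show that a factor was bound.

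Levels were compared between genes as CPM per kb of merged exons, a length that joins all annotated transcripts and affects the order of genes. On this scale the 50 genes ran from 0.893 ± 0.193 (SD, n = 7 mice) for Bub1, a spindle checkpoint kinase, to 42.9 ± 5.72 for Cdk4, the G1 kinase partner of the D cyclins. Cdk4 was thus the highest of the G1 genes, and its level in single mice was 35.2 to 49.97. Cdk6, the other partner of the D cyclins, was the lowest of them at 1.72 ± 0.225. Among the 3 D cyclins, Ccnd3 had a level of 20.02 ± 3.65, Ccnd1 of 12.6 ± 0.938 and Ccnd2 of 11.6 ± 0.992, and the last pair overlapped between mice. Of the pocket proteins, Rb1 stood at 3.37 ± 0.524 and Rbl1 at 2.06 ± 0.301.

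**Figure D1:**
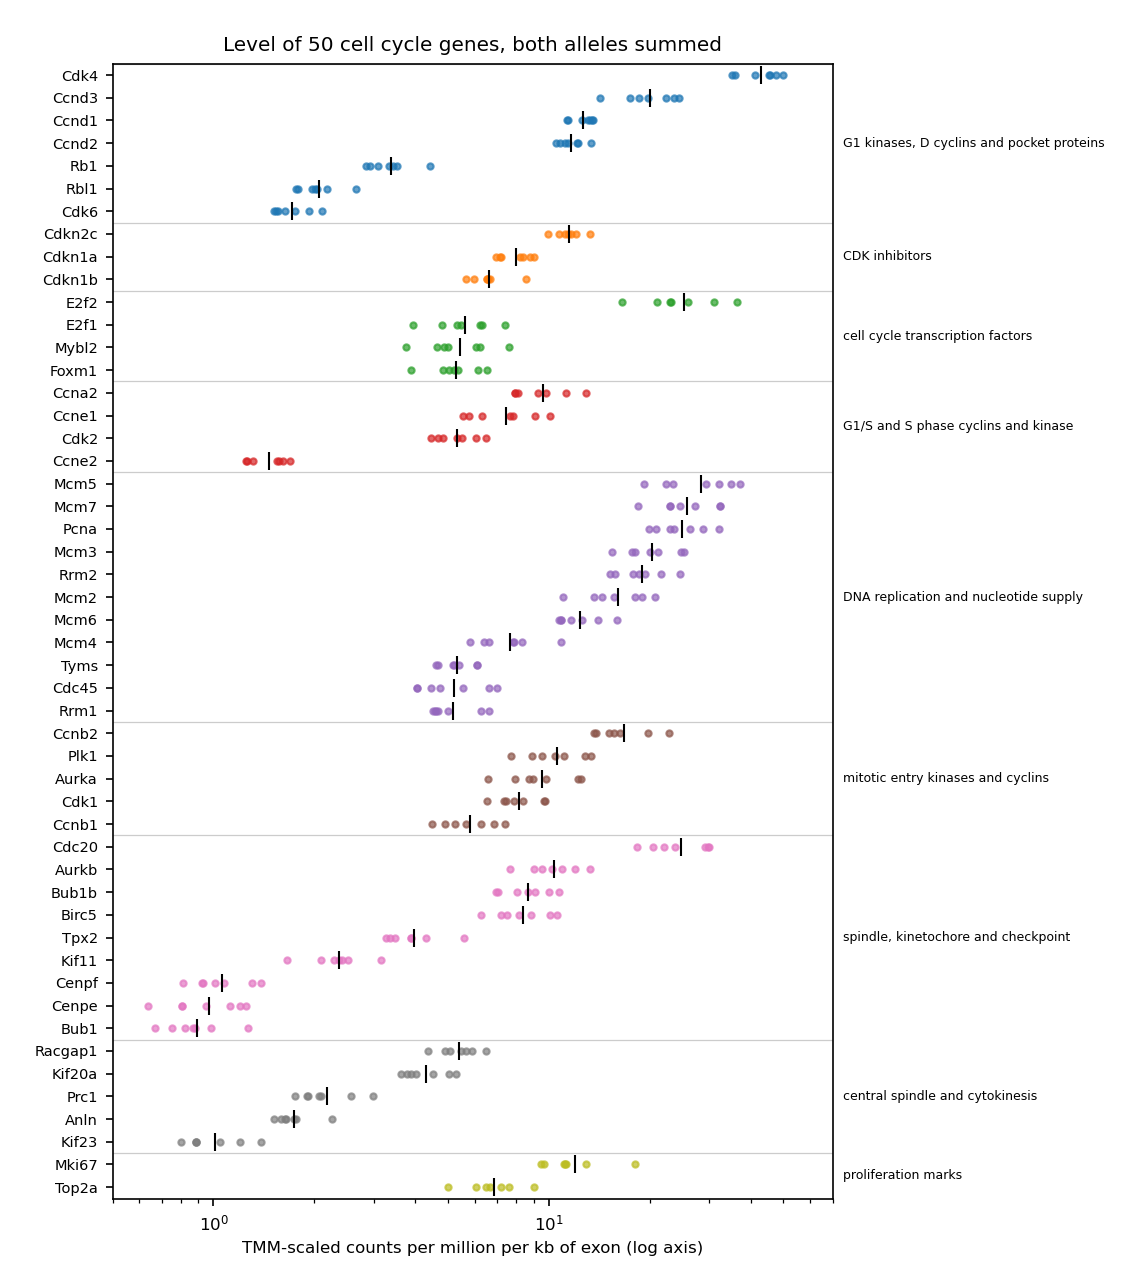
Level of each of the 50 genes on a log axis, as TMM-scaled CPM per kb of exon with both alleles summed. Points are the 7 mice, black bars their means, and colors the role of the gene. Cdk4 is highest at 42.9 and Bub1 lowest at 0.893.

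The 3 inhibitors of the cyclin-dependent kinases had levels led by Cdkn2c, an inhibitor of Cdk4 and Cdk6, at 11.5 ± 1.05, followed by Cdkn1a, the p53 target p21, at 7.95 ± 0.848 and Cdkn1b, p27, at 6.64 ± 0.917, which overlapped between mice. The transcription factors differed more. E2f2, an activator of S phase genes, reached 25.3 ± 6.62, while E2f1 at 5.64 ± 1.13, Mybl2 at 5.44 ± 1.27 and Foxm1 at 5.28 ± 0.871 differed by less than the spread between mice. At the G1/S step, Ccna2, the cyclin of S phase and G2, had the highest level at 9.58 ± 1.90, and Ccne2, 1 of the E cyclins that start S phase, the lowest at 1.46 ± 0.184.

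Replication genes were among the most abundant. Mcm5, a subunit of the helicase, had a level of 28.4 ± 6.82, followed by Mcm7 at 25.8 ± 5.13 and by Pcna, the sliding clamp of the DNA polymerases, at 24.9 ± 4.45. These 3 overlapped between mice. The other helicase subunits, which join with them in a single ring, had lower levels, at 20.3 ± 3.68 for Mcm3, 16.1 ± 3.39 for Mcm2, 12.4 ± 1.97 for Mcm6 and 7.66 ± 1.66 for Mcm4. Rrm2, the small subunit of ribonucleotide reductase, stood at 18.99 ± 3.28. Rrm1, its large subunit, stood at 5.18 ± 0.889, the lowest of the 11 replication genes on this scale. Their order rests on merged lengths of 2771 bases for Rrm2 and 11012 for Rrm1. Without the length, Rrm2 had 52.6 ± 9.09 CPM and Rrm1 57.0 ± 9.79.

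Among mitotic entry genes the levels ran from 5.82 ± 1.06 for Ccnb1 to 16.7 ± 3.39 for Ccnb2, both B cyclins, with their kinase Cdk1 at 8.13 ± 1.21. Cdc20, the activator of the anaphase-promoting complex, was the highest spindle gene at 24.7 ± 4.85. Bub1, the kinetochore motor Cenpe at 0.966 ± 0.230 and the kinetochore protein Cenpf at 1.06 ± 0.208 were the lowest, and they overlapped with Kif23. Kif23, a motor of the central spindle, was the lowest cytokinesis gene at 1.01 ± 0.214, and Racgap1, which joins it in centralspindlin, the highest at 5.40 ± 0.705. Mki67, the gene of the Ki-67 antigen, had a level of 12.0 ± 2.93 and Top2a, the topoisomerase that untangles chromosomes, of 6.87 ± 1.28.

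Across the 7 mice, the 50 genes varied more than the median gene. The SD of the log2 level over mice had a median of 0.27 over the 50 genes, against 0.20 over the same 15111 genes. From the lowest to the highest mouse, the median difference was 1.67-fold for the 50 genes and 1.46-fold for all genes. E2f2 varied most, with an SD of 0.37, and Ccnd1 least, with an SD of 0.11. By role, the median SD was largest for the transcription factors at 0.32 and smallest for the kinase inhibitors at 0.15.

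The same mice were high for most of the genes. Mouse 5 had the highest level of 34 of the 50 genes, whereas it was highest for 14.7% of all genes. Mouse 3 had the lowest level of 25 of the 50 genes and of 18.6% of all genes. The level was above the gene's own mean over mice for 47 genes in mouse 5 and 39 in mouse 7, but for 8 in mouse 3 and 4 in mouse 2. Over the 50 genes, the median log2 difference from the gene's own mean was 0.36 for mouse 5 and 0.18 for mouse 7, and it was -0.14 for mouse 2 and -0.25 for mouse 3. Over all genes the median was 0.01 for mouse 5 and -0.0017 for mouse 3.

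**Figure D2:**
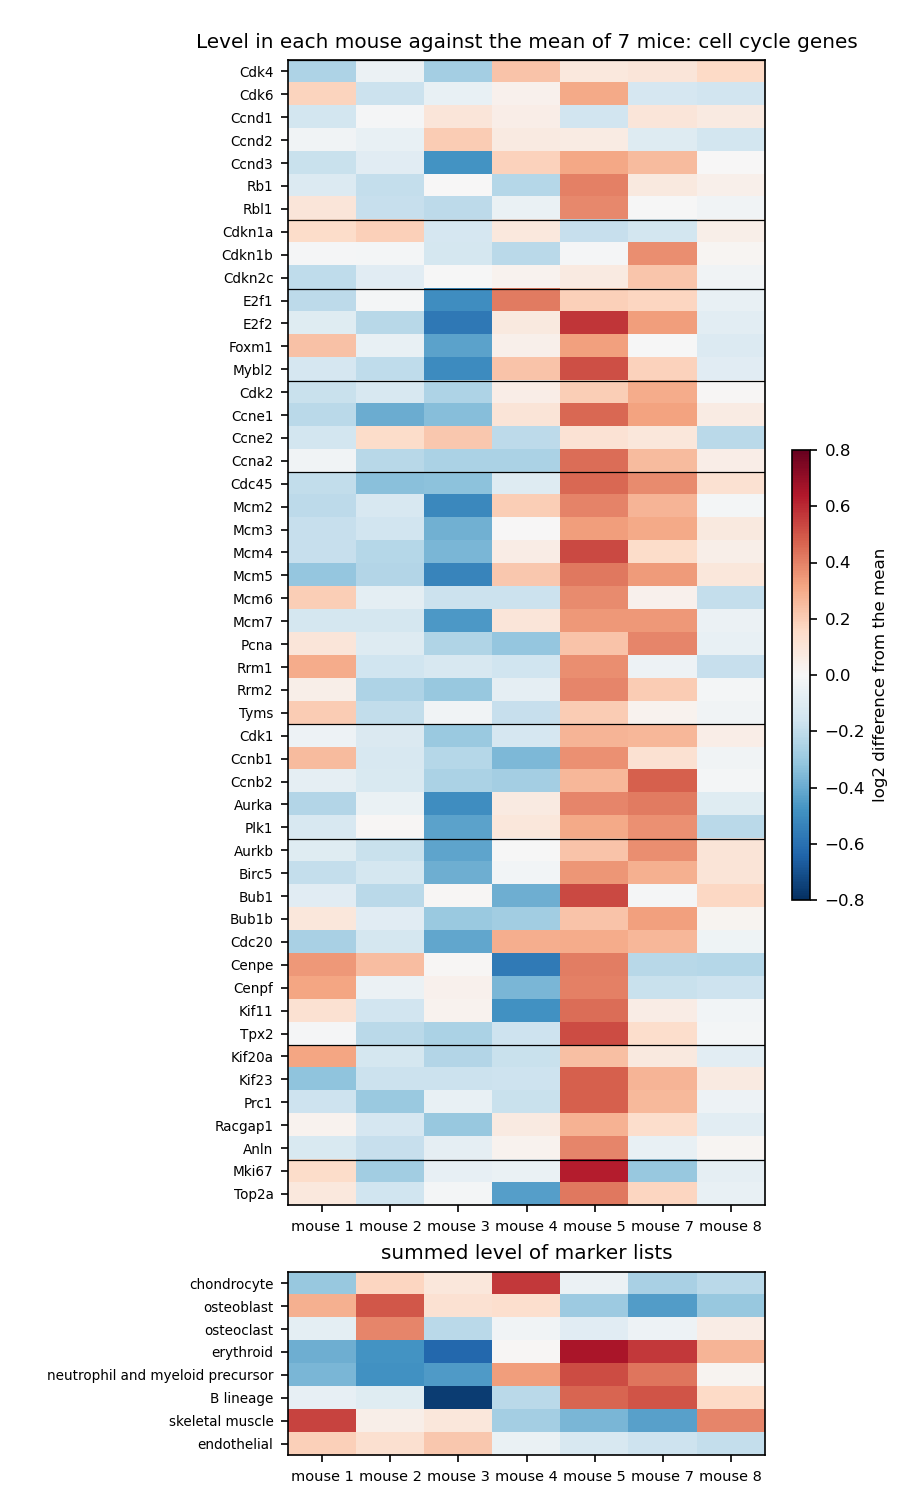
Log2 difference of the level in each mouse from the mean of the 7 mice, for the 50 genes in order of role (upper panel, black lines between roles) and for the summed level of 8 marker lists (lower panel), with red above and blue below the mean. The column of mouse 5 is above the mean for 47 of the 50 genes, and the erythroid and neutrophil sums are highest in the same mouse.

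Single genes show the shared pattern and its exceptions. The level of E2f2 was 16.5 in mouse 3, 23.1 at the median of the mice, which was mouse 8, and 36.4 in mouse 5, with mouse 7 next at 31.0. It was thus 2.21-fold higher in mouse 5 than in mouse 3. Mcm5 followed the same order at its ends, with 37.1 in mouse 5 and 19.2 in mouse 3, and 35.0 in mouse 7. Mki67 was also highest in mouse 5, at 18.1, but its lowest level of 9.49 was that of mouse 7. Ccnd1 ranged only from 11.3 in mouse 5 to 13.5 in mouse 3, and Cdkn1a was lowest in mouse 5, at 6.97, and highest in mouse 2, at 9.05. For these genes mouse 5 was the lowest and not the highest mouse.

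The summed markers of blood-forming cells differed between the same mice. The erythroid sum was lowest in mouse 3 and highest in mouse 5, a difference of 2.43-fold, the neutrophil sum lowest in mouse 2 and highest in mouse 5, 2.00-fold, and the B lineage sum lowest in mouse 3 at 191 CPM and highest in mouse 7 at 458, 2.40-fold. The correlation of a gene's log2 level with the log2 erythroid sum had a median Pearson's r of 0.73 over the 50 genes and was positive for 44 of them. With the neutrophil sum the median r was 0.72 and with the B lineage sum 0.72, positive for 44 and 46 genes. The median r was negative with the chondrocyte sum, at -0.25, with the osteoblast sum, at -0.58, with the skeletal muscle sum, at -0.44, with the endothelial sum, at -0.59, and with the osteoclast sum, at -0.10. Without mouse 2 the last became 0.27. All levels of a mouse come from 1 library and are shares of its total, so these values describe the 7 libraries. The relations were computed for the 50 genes only, and whether other genes relate to the sums in the same way was not tested. The part of blood-forming cells in the differences between mice was not tested.

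Of 400 relations, between the 50 genes and 8 sums, 8 had an adjusted p under 0.05 for Pearson's r by an exact permutation test over the 7 mice, and 0 for Spearman's rho, for which the smallest adjusted p was 0.0794. Cdc45, which helps to open the helicase, had r = 0.98 with the erythroid sum (exact permutation p = 0.000397, adjusted p = 0.0265), rho = 0.96 (exact permutation p = 0.00278) and r = 0.98 without the 2 mice farthest from the median. Aurkb and Birc5, of the chromosomal passenger complex, Mcm3 and Mcm4 were the others with the erythroid sum. Ccne1 and Mcm4 had such a relation with the neutrophil sum, and Cdk1 with the B lineage sum. For Mki67 and the erythroid sum, r was 0.34 (exact permutation p = 0.501, adjusted p = 0.734), rho was 0.14 (exact permutation p = 0.782), and r was -0.37 without the 2 farthest mice. The count of 8 relations fell to 0 with CPM of all counts in place of TMM scaling and to 0 without each of the 7 mice in turn, where fewer pairings are possible.

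The comparison of alleles asked which genes were expressed more from 1 chromosome than from the other. A gene was called where edgeR's likelihood-ratio test gave a false discovery rate (FDR) under 0.20 over all 20239 genes tested, the threshold of the study. In total, 8 of the 50 genes were called, or 16.0%, while 34.5% of all tested genes were. By direction, 5 of the 50 were called with CAST higher, where 16.0% of all tested genes were, and 3 of the 50 with B6 higher, where 18.5% were. CAST was thus higher in 62.5% of the 8 called genes of the set and in 46.3% of all called genes. The latter include X-linked genes, whereas all 50 genes are autosomal. Among autosomal genes only, 9 of the 50 and 6204 of 19295 were called, with CAST higher in 55.6% and 48.5% of them. With a single library size per mouse for both alleles, CAST was higher in 40.0% of the 5 called and in 43.4% of all called genes. Among the 11558 tested genes with a mean count at least that of the lowest of the 50, 34.7% were called. The allele differences were small: 39 of the 50 log2 fold changes (CAST over B6) were under 0.25 in size, they ran from -0.38 to 0.36, and their median was -0.01. The median size was 0.10, against 0.15 over the 11558 genes.

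In each mouse both alleles were measured in the same library, and a fit with the mouse as a replicate block called 22 of the 50 genes, 12 with CAST and 10 with B6 higher, against 45.3% of all tested genes. The 8 genes called without the block were all among them. The quasi-likelihood test with the block called 20 of the 50, and 8161 of all 20239 tested genes. FDR values given below with the block are those of the likelihood-ratio test, unless the quasi-likelihood test is named. The quasi-likelihood test gave larger values for each of the 8 genes, such as 2.5e-04 against 4.7e-14 for Mybl2. With 7 mice, an exact sign-flip test of a gene's log2 allele ratios cannot give a p under 0.0156. For 13 genes the same allele was higher in all 7 mice, CAST for 5 and B6 for 8, while this held for 24.4% of all tested genes. The log2 allele ratio varied between mice with a median SD of 0.16 over the 49 genes with unequal alleles. Over 14555 of the 15111 genes above, those with unequal alleles, it was 0.27. The SD also depends on counts, and these genes were not matched to the 50, whose mean totals had a median of 795 counts. Whether the spread differs from that of genes with as many counts was not tested.

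**Figure D3:**
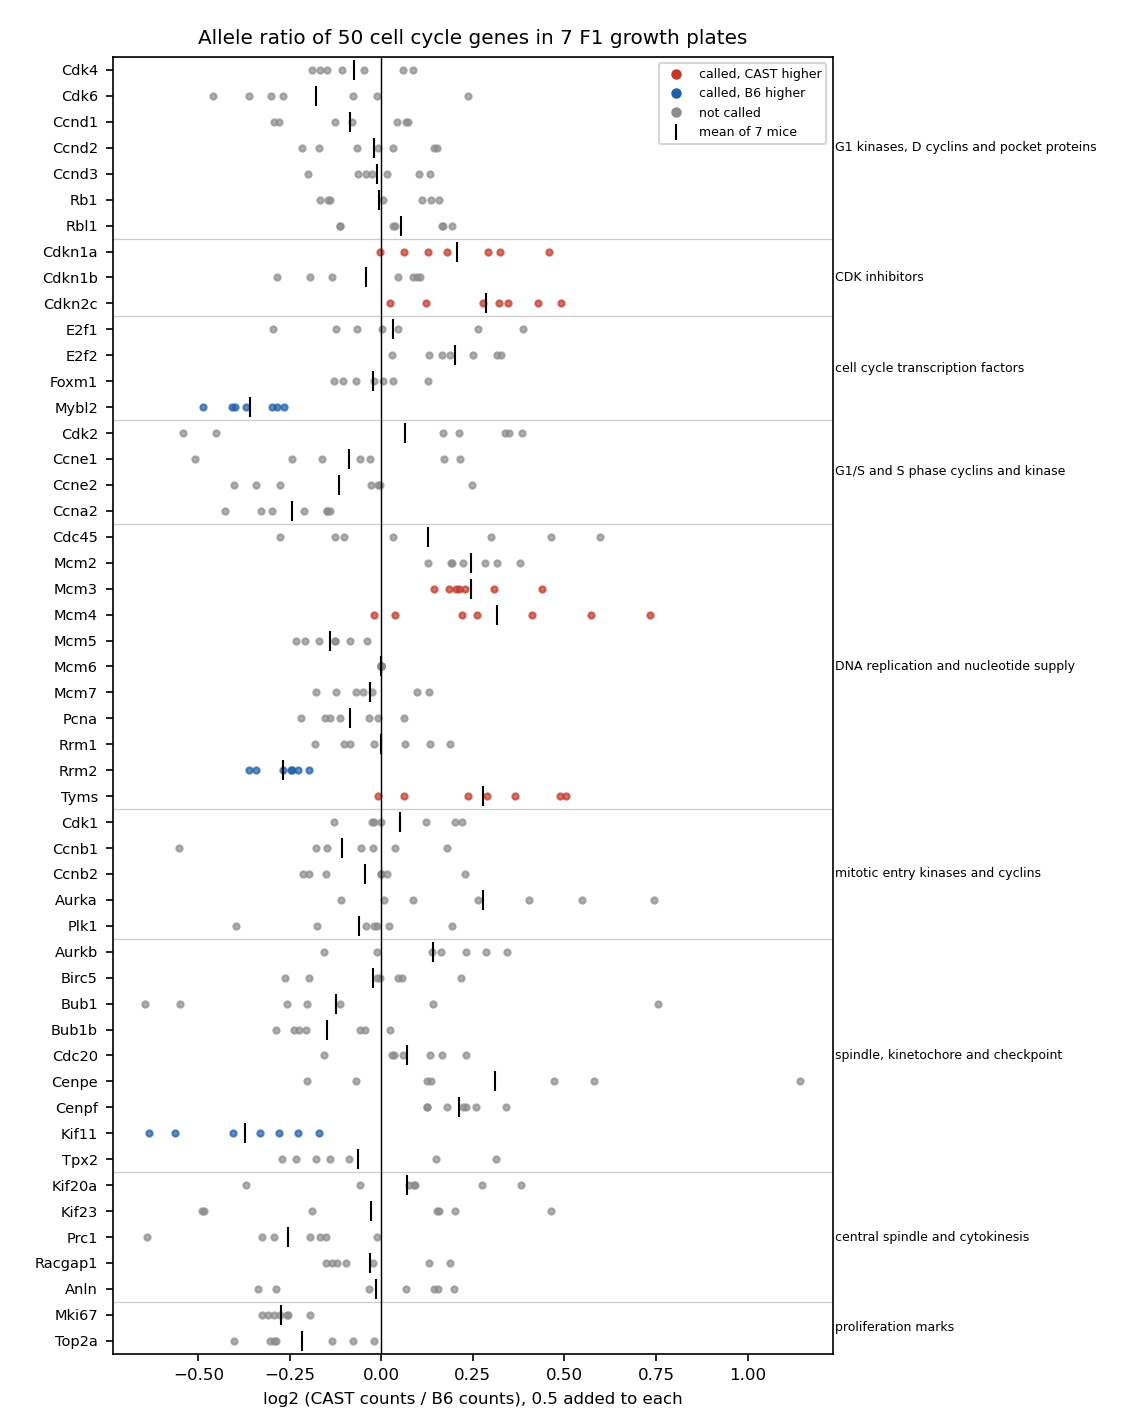
Log2 of CAST over B6 counts, each plus 0.5, of the 50 genes, with 1 point for each of the 7 mice and a black bar for their mean, in order of role. Red marks the 5 genes called with CAST higher, blue the 3 called with B6 higher and gray the 42 not called. The mean log2 ratios of most genes lie near 0, and the points of Mcm6 fall together at 0.

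None of the 7 G1 genes was called, without the block or with it, except Cdk4 (FDR = 0.155) and Cdk6 (FDR = 0.157) where the block was joined with 1 library size per mouse. Cdk4, on Chr. 10, had 1772 ± 546 (SD, n = 7) CAST and 1868 ± 565 B6 counts, and its mean log2 ratio was -0.07 ± 0.110 (FDR = 0.826). Among the inhibitors, Cdkn2c and Cdkn1a were called with CAST higher. Cdkn2c lies on Chr. 4 from 109660876 to 109667189 of GRCm38. Its CAST counts were 284 in the lowest mouse, 457 at the median and 701 in the highest, and its B6 counts 234, 342 and 562. The counts of the alleles overlapped between mice, whose depth differed, but CAST was higher within each of the 7. The log2 fold change was 0.30 (FDR = 0.00851, with the block 5.05e-06), and the log2 ratio ran from 0.02 to 0.49 over mice.

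Cdkn1a lies on Chr. 17 from 29090976 to 29100727. Its CAST counts were 188, 402 and 521 at the lowest, median and highest mouse, and its B6 counts 180, 329 and 522. CAST was higher in 6 of 7 mice, with a log2 fold change of 0.22 (FDR = 0.123, with the block 0.00213). The call was lost without mouse 3, mouse 4 or mouse 8 and with a single library size per mouse for both alleles, where its FDR reached at most 0.299. Cdkn1b was not called, and CAST was higher in 4 of 7 mice.

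Mybl2, a transcription factor that binds with the MuvB complex at promoters of mitosis genes, was the called gene among the transcription factors. On Chr. 2 from 163054687 to 163084688, it had 175, 240 and 601 CAST counts at the lowest, median and highest mouse and 231, 306 and 777 B6 counts. B6 was higher in all 7 mice, with log2 ratios between -0.49 and -0.27 and a log2 fold change of -0.34 (FDR = 0.103, with the block 4.7e-14). E2f2 was not called (log2 fold change 0.21, FDR = 0.435), though CAST was higher in all 7 mice and the block gave an FDR of 1.01e-06. Ccna2 was just outside the threshold, with a log2 fold change of -0.24 (FDR = 0.207, with the block 1.34e-07) and B6 higher in all 7 mice. It was called without mouse 5 (FDR = 0.1998) and among autosomal genes only (FDR = 0.197). Its exons overlap those of Exosc9 on the opposite strand, and whether the counting used the strand of the reads is not given in the sources used here.

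In replication, 4 of the 11 genes were called, and 7 with the block. Mcm3 on Chr. 1 (20802968 to 20820312) had 726, 964 and 2054 CAST counts at the lowest, median and highest mouse and 620.0, 871 and 1660.2 B6 counts. CAST was higher in all 7 mice, by a log2 fold change of 0.26 (FDR = 0.147, with the block 2.3e-11). Mcm4 on Chr. 16 (15623897 to 15637400) had 247, 327 and 912 CAST and 186, 299.8 and 612 B6 counts, a log2 fold change of 0.36 (FDR = 0.0742), with CAST higher in 6 of 7 mice. Both encode subunits of the helicase. The call of Mcm3 was lost without mouse 2 or mouse 4 and with a single library size per mouse, and that of Mcm4 without mouse 4, where its FDR was 0.247.

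The other helicase subunits were not called in the 7 mice without the block, and with it Mcm2 and Mcm5 were, in opposite directions. CAST was higher in all 7 mice for Mcm2 as for Mcm3 (Mcm2, log2 fold change 0.26, FDR = 0.206, with the quasi-likelihood test and the block 8.69e-04). Mcm2 was also called without mouse 3 (FDR = 0.159) or mouse 5 (FDR = 0.196), with unrounded counts and with a minimum of 10 counts. For Mcm5 B6 was higher in all 7 mice (log2 fold change -0.13, FDR = 0.692, with the block 9.08e-06), for Mcm7 CAST was higher in 2 of 7, and for Mcm6 the alleles had equal counts in every mouse. The method divides reads that fit both alleles. Exactly equal counts in every mouse, at totals of 849 to 2910, are therefore not a measure of balanced expression of Mcm6.

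Rrm2 and Tyms supply nucleotides for the copying of DNA, Tyms as the synthase of thymidylate. Rrm2 on Chr. 12 (24708241 to 24714146) had 400.0, 561 and 1170.2 CAST and 468, 664 and 1503 B6 counts at the lowest, median and highest mouse. B6 was higher in all 7 mice, with log2 ratios within -0.36 and -0.20, a log2 fold change of -0.26 and an FDR of 0.114 (with the block 2.95e-15). The call was lost without mouse 8, where the FDR was 0.257. Tyms on Chr. 5 (30058202 to 30073617) had 280.2, 435 and 726 CAST and 198, 369 and 730.5 B6 counts, with CAST higher in 6 of 7 mice and a log2 fold change of 0.27 (FDR = 0.0503). With a single library size per mouse its FDR was 0.205. Rrm1, the partner of Rrm2, was not called and had CAST higher in 3 of 7 mice.

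**Figure D4:**
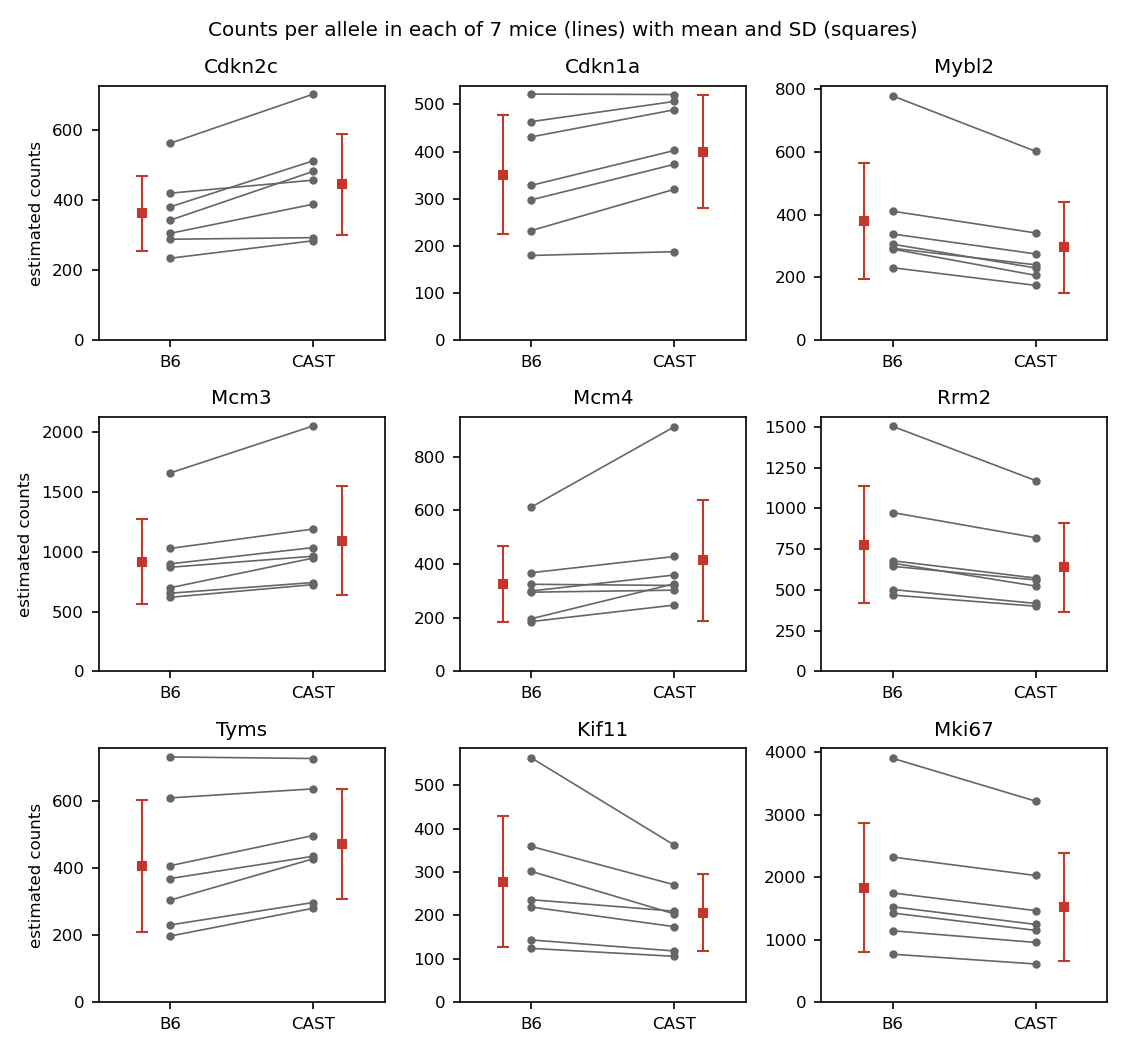
Estimated counts of the B6 and the CAST allele of the 8 called genes and of Mki67, on axes that start at 0. Each line joins the alleles of 1 mouse, and squares with bars give the mean and SD of 7 mice. Every line rises from B6 to CAST in Cdkn2c and Mcm3 and falls in Mybl2, Rrm2, Kif11 and Mki67.

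None of the 5 mitotic entry genes was called without the block in the 7 mice. Cdk1 on Chr. 10 had 336, 511 and 934 CAST counts at the lowest, median and highest mouse and 336, 483 and 947 B6 counts, with a log2 fold change of 0.07 (FDR = 0.786) and CAST higher in 3 of 7 mice. Aurka, a kinase of the spindle poles, had the largest difference of this role, with a log2 fold change of 0.30 (FDR = 0.207, with the block 0.0249) and CAST higher in 6 of 7 mice. It was called without mouse 3 (FDR = 0.184), mouse 4 (FDR = 0.168) or mouse 5 (FDR = 0.143), with unrounded counts and with a minimum of 10 counts. With the block it was the called gene of these 5.

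Of the 9 spindle genes, Kif11, the motor that pushes the spindle poles apart, was called. Kif11 lies on Chr. 19 from 37376403 to 37421859. It had 106, 204 and 362 CAST counts and 124, 236 and 563 B6 counts at the lowest, median and highest mouse. This was the largest difference among the 50 genes, a log2 fold change of -0.38 (FDR = 0.0332, with the block 1.89e-06), and B6 was higher in all 7 mice. Cenpf showed the reverse direction in all 7 mice, with a log2 fold change of 0.22, and was not called (FDR = 0.305, with the block 1.28e-04). With the block, 6 of the 9 spindle genes were called, 4 with CAST higher (Cenpf, Aurkb, Cenpe and Cdc20) and 2 with B6 higher (Kif11 and Bub1b). The widest allele ratios over mice were those of Bub1, with an SD of 0.47, and Cenpe, with an SD of 0.46, while that of Cenpf was 0.0771.

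None of the 5 cytokinesis genes was called without the block. Kif23 lies on Chr. 9 from 61915905 to 61946774, inside Feml2, the region for femur length that the study mapped. Its CAST counts were 60.7 in the lowest mouse, 87.9 at the median and 227 in the highest, and its B6 counts 64.2, 90.5 and 203. CAST was higher in 4 of 7 mice, and the means of 107 counts per allele were equal to 3 digits (log2 fold change 0.02, FDR = 1, with the block 1). The SD of its log2 ratio over mice was 0.367, against the median of 0.16 over the 49 genes. Prc1, which bundles the microtubules of the central spindle, had B6 higher in all 7 mice (log2 fold change -0.22, FDR = 0.306, with the block 0.00133).

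Both proliferation marks were higher from B6 in all 7 mice, and in the 7 mice neither was called without the block. Mki67 on Chr. 7 (135689784 to 135716361) had 614, 1247 and 3218 CAST counts at the lowest, median and highest mouse and 771, 1529 and 3902 B6 counts. Its log2 ratio was -0.27 ± 0.0437 and lay between -0.33 and -0.20, the smallest spread between mice of the 49 genes with unequal alleles. The log2 fold change was -0.25, with an FDR of 0.256 without and 6.2e-33 with the block. With the quasi-likelihood test and the block its FDR was 4.8e-05. Without mouse 5 it was called without the block as well (FDR = 0.107). Top2a on Chr. 11 had a log2 fold change of -0.21 (FDR = 0.268, with the block 2.95e-04), and its log2 ratio ran from -0.40 to -0.02. It was called without mouse 4 (FDR = 0.177).

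Some counts could hold reads of other genes. The total was not a whole number, to a tolerance of 0.0001, in at least 1 mouse for 26 of the 50 genes and in all 7 mice for 13, as the authors' method divides reads that fit several genes. Tyms and Kif11 were among the 13, and Mybl2 had such totals in 6 mice. The exons of 18 genes overlap another annotated gene, 15 of them 1 that is in the files, such as Cdk4 with Tspan31 and Cdc20 with Elovl1 on the opposite strand. Of the 8 called genes, none overlaps a gene in the files. Ccnb2 has an annotated copy, Ccnb2-ps, with 22.1 counts on average.

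Other genes of the cell cycle, 116 genes in 3 lists, were set beside the 50. Of the 115 tested, 34 were called, or 29.6% against 34.5% of all tested genes, 13 with CAST and 21 with B6 higher, and 25 of these had the same direction in all 7 mice. With the block 52 of the 115 were called, beside 45.3% of all tested genes. Among 38 replication genes, 2 were called with CAST and 10 with B6 higher, and with the block 7 and 13. Among 49 mitosis genes the counts were 8 and 8, with the block 11 and 11, and among 28 control genes 3 and 3, with the block 4 and 6. The largest differences were those of genes on the X chromosome, of which males have a single copy, and of an imprinted gene. Kif4, an X-linked chromosome motor, had 255 B6 and 0.0213 CAST counts on average, X-linked Pola1, of the primase complex, 298 and 2.90, and imprinted Cdkn1c, the inhibitor p57, 3419 and 92.7.

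Beside these, the smallest P-values of the replication list belonged to Rfc2, of the clamp loader (log2 fold change -0.80, FDR = 1.79e-08), and Gins4, of the helicase complex (-0.40, FDR = 0.00274), with B6 higher, and to Rpa1 (0.47, FDR = 4.19e-05) and Rpa3 (0.53, FDR = 0.00593), of the single-strand binding complex, with CAST higher. In the mitosis list they were Hmmr (-0.52, FDR = 0.00723) and Spc25 (-0.60, FDR = 0.0137) with B6 higher, and Cdc25c, the phosphatase that activates Cdk1 (0.70, FDR = 3.84e-04), Aspm (0.47, FDR = 8.28e-04) and Incenp (0.35, FDR = 0.00394) with CAST higher. In the control list, Lin37, a subunit of MuvB, had CAST higher by a log2 fold change of 1.03 (FDR = 7.08e-07), as had Cdkn2d (0.48, FDR = 0.00789) and Lin54 (0.48, FDR = 0.00837), while Ccng1 (-0.25, FDR = 0.104) and E2f5 (-0.47, FDR = 0.161) had B6 higher.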

How the data were processed

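Libraries were made from total RNA depleted of ribosomal RNA with a stranded kit and sequenced in pairs of reads. From these, the authors deposited estimated counts per gene and allele, without normalization and often with fractions: Bowtie aligned the reads to transcripts of both strains (mm10), and EMASE divided them among alleles and genes, each end and lane on its own, so a fragment may add several counts. The 7 mice are separate animals.

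Rounded counts of the alleles were tested with edgeR 4.0.16 (R 4.3.3), using TMM factors, estimateDisp, glmFit and glmLRT, over the 20239 genes in which each mouse had 1 or both alleles above 5e-10. Smaller estimates were taken as 0, a limit set after seeing the data. FDR values are Benjamini-Hochberg adjusted over all genes tested. The gene set and lists were chosen with earlier results of these data known, and the genes named are those called with 1 direction in all 7 mice, Mki67, Top2a, Cdk1 and Kif23, the highest and lowest level of each role, genes with equal alleles and, of other lists, up to 3 of the smallest P in each direction. Further genes were named after their values were seen. Alleles of a mouse come from 1 library: deviations correlated by 0.059 on average within mice (lowest -0.055) and by -0.010 between mice (highest 0.172), over 15111 genes. These correlations are taken across genes and do not measure the pairing of a single gene. With the block, the calls rose from 8 to 22 of the 50 genes. Alternatives were DESeq2 1.42.0, the quasi-likelihood test, other filters and scalings, the block, unrounded counts and each mouse left out. Levels used both alleles and exon lengths of GENCODE release M21 (GRCm38), which holds 98.0% of the identifiers.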

Additional observations from a re-analysis of the deposited data

Results flagged for a closer look

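In 2 of 99 sets of 7 mouse values, levels and allele ratios of the 50 genes, 1 mouse lay far from the others by Dixon's test, where chance gives about 4.95 (1 in 20). The log2 level of Cdkn1b, an inhibitor of the cyclin-dependent kinases, was 5.28 in mouse 7, against 4.69 to 4.92 in the other mice. The log2 level of Anln, the actin-binding protein anillin of the cleavage furrow, was 4.36 in mouse 5, against 3.78 to 3.99 in the other mice.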

How the results depend on the processing

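Of the 50 genes, 8 were called in the main setting. A replicate block for the mouse raised the count to 22, with the block and the quasi-likelihood test 20, with 1 library size per mouse 5 (2 CAST and 3 B6 higher, against 5 and 3), with that and the block 23, and at an FDR under 0.05 2. It was 8 with the quasi-likelihood test, DESeq2, RLE factors, no filter or any estimate above 0 (an alternative chosen after seeing the data), 9 with autosomal genes only, and 10 with a minimum of 10 counts or unrounded counts. Leaving out each mouse gave 6 to 12, the highest without mouse 5, and the split became 3 CAST and 4 B6 without mouse 4. Of all 20239 tested genes, 6981 were called in the main setting, 9168 with the block and 8161 with the block and the quasi-likelihood test. The number was 6479 with 1 library size per mouse, 9180 with that and the block, and 4776 at an FDR under 0.05. With a minimum of 10 counts it was 5603 of 15111, and with unrounded counts 7024. Leaving out a mouse gave 6279 (mouse 2) to 6857 (mouse 4). Cdkn2c, Mybl2 and Kif11 were called at an FDR under 0.20 in all 19 other fits, and Mybl2 was not at an FDR under 0.05. Of the other cell cycle genes 34 were called, 52 with the block, 55 with the block and 1 library size per mouse, and 22 at an FDR under 0.05. The 8 relations of levels with marker sums became 0 with CPM of all counts and 0 without each mouse. With a mouse left out, fewer pairings keep p from becoming as small, so that this 0 cannot show a dependence on that mouse. The cause of the changed counts was not tested. The median SD of log2 levels was 0.21 to 0.29 without each mouse, the lowest without mouse 5. Genes with few counts, such as Bub1 and Cenpe, allow only large allele differences to be seen, and p-values cover 7 mice of 1 age and sex.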
